A study of Mus musculus with 8 samples.

Results

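The 45 genes described here encode histone modifying enzymes, or are named after one, and were chosen by symbol from the peak lists of an IRF5 CUT&Tag experiment in mouse macrophages. They are the genes nearest to a peak in any of 6 deposited lists whose symbol begins with Kdm, Kmt, Setd, Hdac or Kat and a digit, and they stand among 21295 named genes in all. The set holds 15 Kdm, 8 Kmt, 8 Setd, 7 Hdac and 7 Kat genes. A gene enters it only by having a peak nearest to it, so genes of these families that no list named are not analysed here. Among those are Kdm1a, Kdm2b, Hdac2, Hdac9 and Kat2a.

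The libraries were made from bone marrow derived macrophages of wild-type mice that had been stimulated with CpG, unmethylated DNA recognised by the receptor TLR9, or given PBS, here called control. In CUT&Tag an antibody, here against the transcription factor IRF5, directs a transposase to nearby DNA, and the released fragments are sequenced. Each condition had 2 anti-IRF5 libraries, called CpG 1, CpG 2, control 1 and control 2. The dose and duration of CpG, the age and number of mice and whether the libraries of a condition came from separate cultures are not given in the labels, so spreads between libraries may be technical. IRF5 is activated downstream of MyD88 and drives inflammatory genes. The 4 IgG libraries of the series of 8 samples have no peak list of their own. By the names of the lists, 1 IgG library per condition served as the background of its peak calls, so background library and condition cannot be told apart.

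Histone tails carry acetyl and methyl groups that regulate how readily a gene is transcribed. Kat enzymes add acetyl groups to lysines and Hdac enzymes remove them. Kmt and several Setd enzymes add methyl groups to lysines, and Kdm enzymes take them off. In macrophages these enzymes are known to tune the response to microbial signals. The best known example is Kdm6b, also called JMJD3, a demethylase that is induced in stimulated macrophages and removes a repressive methyl mark of histone H3.

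The lists held 13553 and 25851 peaks in CpG 1 and CpG 2 and 29226 and 37315 in control 1 and control 2. They give no read totals, so depth is unknown. CpG 1 stands apart by its short list, and results that rest on it are also given without it. Promoter-class peaks were present at 7 and 8 of 11 named macrophage markers in CpG 1 and CpG 2 and at 9 and 9 in control 1 and control 2, with Adgre1, Cd68, C1qa and C1qb in all 4. Markers of 6 other cell types had one at 4 and 3 of 18 named genes in CpG 1 and CpG 2 and at 3 and 5 in control 1 and control 2. The macrophage list held 12 markers and the other lists 32, and markers that no peak list named are left out. As shares the 18 stood at 22.2% and 16.7% with CpG and at 16.7% and 27.8% in control. Of all named genes 10.3% and 22.1% had one in CpG 1 and CpG 2 and 23.9% and 28.4% in control 1 and control 2. Among those 18, Pecam1, a stromal and endothelial marker, and Xcr1, a dendritic cell marker, had a promoter-class peak in all 4 libraries. The pooled count hides differences between cell types. Dendritic cell markers had one at 2 and 1 of 3 named genes in CpG 1 and CpG 2 and at 2 and 2 in control 1 and control 2, while B cell and erythroid markers had none.

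The 45 members had a higher share with promoter peaks than named genes at large in each of the 4 libraries, a description with no test. Fewer of them had one in each CpG library than in each control library. A gene counts as marked where the deposited annotation assigns a peak to it as Promoter. Of the 45 members, 11 in CpG 1 and 19 in CpG 2 had such a peak, against 26 in control 1 and 25 in control 2. As shares these are 24.4% and 42.2% with CpG and 57.8% and 55.6% in control. The background over all named genes was 10.3% in CpG 1, 22.1% in CpG 2, 23.9% in control 1 and 28.4% in control 2.

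The lead over the background narrowed against a closer comparison set. All members but Kdm6bos matched a protein-coding gene of RefSeq, and 11344 named genes did. Coding genes had a promoter peak at 14.1% and 30.5% in CpG 1 and CpG 2 and 33.2% and 38.8% in control 1 and control 2. The 44 coding members stood at 25% and 40.9% with CpG and at 59.1% and 54.5% in control. Averaged over the 4 libraries, members exceeded all named genes by 23.8 percentage points and coding genes by 15.7. Members are also longer than other genes, with a median span of 43.1 kb against 22.0 kb for named coding genes and 8.29 kb for all named genes. What length contributes to the counts was not tested.

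The difference between the conditions could not be separated from the spread between libraries. The mean share of members was 33.3% ± 12.6 with CpG and 56.7% ± 1.57 in control (SD, n = 2 each), a difference of -23.3 percentage points. An exact permutation test, two-sided and with 6 possible assignments, gave p = 0.33, the smallest it allows. The shares did not overlap between the conditions. Over all named genes the means were 16.2% ± 8.36 with CpG and 26.2% ± 3.18 in control (SD, n = 2 each, exact permutation p = 0.33), so the background moved the same way by -9.99 points. Without CpG 1 the difference of the members was -14.4 points. With each list limited to its 13553 peaks of highest fold enrichment it was -7.78 points, and members then stood at 24.4% and 15.6% in CpG 1 and CpG 2 and 26.7% and 28.9% in control 1 and control 2. All named genes then stood at 10.3% and 11.3% in CpG 1 and CpG 2 and 11.7% and 11.2% in control 1 and control 2, so the background differed little between the conditions.

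**Figure D1:**
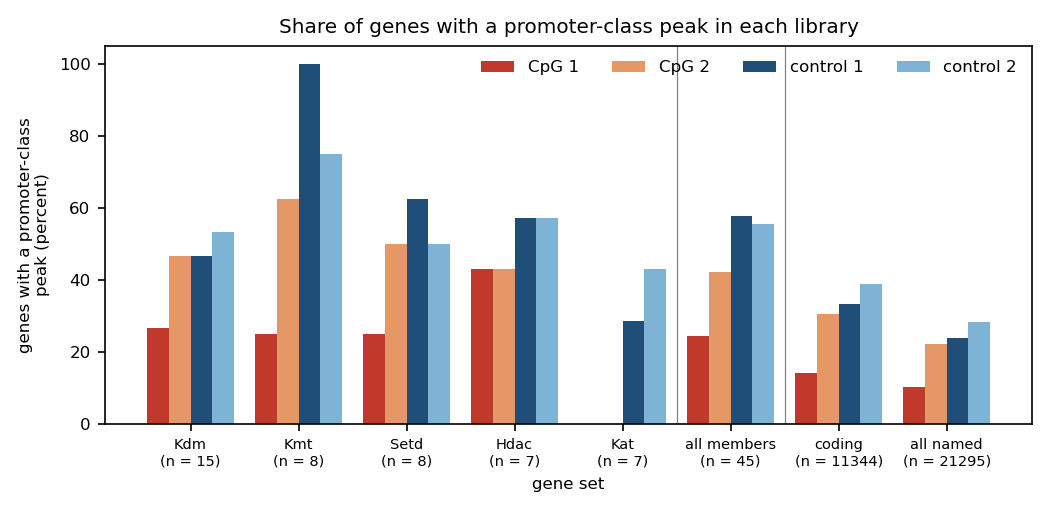
Share of genes with a promoter-class peak (percent, vertical axis from 0) for 5 enzyme classes, all members, named protein-coding genes and all named genes, with 1 bar per library. All 8 Kmt genes had one in control 1, and none of the 7 Kat genes had one in CpG 1 or CpG 2. Of all named genes 23.9% had one in control 1, 10.3% in CpG 1 and 22.1% in CpG 2.

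Among the classes, the methyltransferase genes of the Kmt family had the highest share in CpG 2, control 1 and control 2, and the Hdac genes in CpG 1. Of the 8 Kmt genes, 2 in CpG 1 and 5 in CpG 2 had a promoter peak, against 8 in control 1 and 6 in control 2. Kmt2b, Kmt2c, Kmt2d and Kmt2e belong to the mixed lineage leukaemia family, whose best known members methylate histone H3 at promoters and enhancers. The first 3 had a promoter peak in CpG 2 and both control libraries and not in CpG 1. The founding member, Kmt2a, had 1 peak, in control 1 (fold enrichment 4.19), and no peak in the other 3 libraries.

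The Setd genes gave 2 and 4 of 8 in CpG 1 and CpG 2 and 5 and 4 in control 1 and control 2. Kdm genes gave 4 and 7 of 15 with CpG and 7 and 8 in control. Hdac genes gave 3 and 3 of 7 with CpG and 4 and 4 in control. Control counts were at or above CpG counts in these 3 classes, and the shares of all named genes ran the same way. Those shares were 10.3% and 22.1% in CpG 1 and CpG 2 and 23.9% and 28.4% in control 1 and control 2. Setd7 had a promoter peak in control 1 alone, with a fold enrichment of 4.80 and its summit at -212 bp. Its start also had a peak with a summit at 803 bp in CpG 2 (4.16) and at 153 bp in control 2 (6.01), in another class. No peak was found at Setd7 in CpG 1.

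For the acetyltransferase genes the label Promoter and the presence of a peak near the start gave different counts. None of the 7 Kat genes had a promoter-class peak in CpG 1 or CpG 2, against 2 in control 1 (Kat6a, Kat8) and 3 in control 2 (Kat14, Kat2b, Kat7). Of all named genes 10.3% in CpG 1 and 22.1% in CpG 2 had one, against 23.9% in control 1 and 28.4% in control 2. With 7 genes, such counts say little about the class. Counted instead by any peak with its summit within 1 kb of the gene start, a rule added after the data were seen, 1 and 3 Kat genes were marked in CpG 1 and CpG 2 and 5 and 4 in control 1 and control 2. Under that rule all named genes stood at 13.4%, 31.1%, 34.2% and 38.4% and the 45 members at 24.4%, 53.3%, 73.3% and 66.7%, each in the order CpG 1, CpG 2, control 1, control 2. No member was marked by it in both CpG libraries alone (0.592% of named genes), and 6 were in all 4 libraries (8.90%). The exact permutation p of the class difference was 0.33 for Kmt, Hdac and Kat and 0.67 for Kdm and Setd, over 5 classes and without adjustment, and 0.33 is the lowest value possible.

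Kat7 shows why the 2 rules differ. It encodes the acetyltransferase HBO1, lies on chromosome 11 (95165084 to 95201072, minus strand) and had a peak over its start in each library. The summits lay at 27 and 398 bp in CpG 1 and at 398 bp in CpG 2, against 70 bp in control 1 and -22 bp in control 2, where negative values are upstream. The Promoter class was given in control 2, whose summit fell upstream. The fold enrichments at the start were 4.002 and 3.89 in CpG 1 and 11.8 in CpG 2, against 5.75 in control 1 and 12.8 in control 2. The same held over all named genes. Where the summit lay upstream of the start by up to 2 kb, 97.5% to 97.9% of peaks were in the class, and where it lay up to 1 kb downstream, 7.24% to 10.3%.

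**Figure D2:**
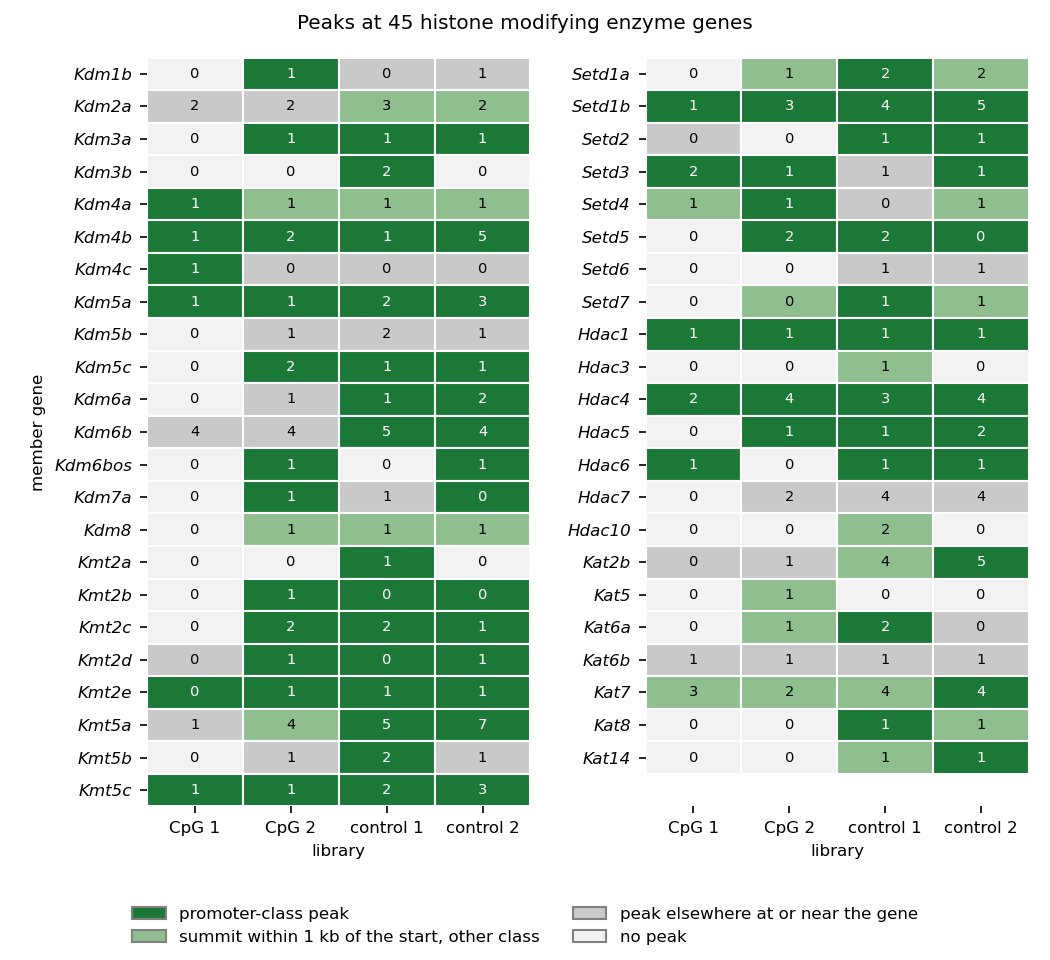
Peak status of the 45 members (rows, in 2 columns) in the 4 libraries, with the number of peaks nearest to the gene printed in each cell. Dark green cells have a promoter-class peak, light green cells a peak summit within 1 kb of the start in another class, and 7 genes, Hdac1, Hdac4, Kdm4b, Kdm5a, Kmt2e, Kmt5c and Setd1b, are dark in all 4 libraries.

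Promoter peaks were called in all 4 libraries at 7 members, Hdac1, Hdac4, Kdm4b, Kdm5a, Kmt2e, Kmt5c and Setd1b. They are 15.6% of the members, and 5.41% of all named genes and 7.77% of coding genes had this pattern. With -log10 q of at least 5 the number was 3, against 3.78% of named genes, and without CpG 1 it was 14, against 13.1%. With lists of equal length it was 1, against 2.21% of named genes, so the members were then at the background. A further 7 members lacked a promoter peak in CpG 1 alone, namely Hdac5, Kdm3a, Kdm5c, Kmt2b, Kmt2c, Kmt2d and Setd5, a pattern of 7.67% of all named genes.

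Fold enrichment is the authors' ratio of the pileup at the summit to the local background, and it is used here to place a peak within its own list. Percentiles of lists of different lengths do not show a change between libraries. Setd1b, whose product is part of a complex that methylates histone H3 at active promoters, ranked highest of the 7 by its lowest percentile. Its promoter peak had fold enrichments of 5.23 in CpG 1 and 9.69 in CpG 2, against 9.01 in control 1 and 12.1 in control 2, at percentiles 55.8, 84.0, 88.0 and 90.7 of the lists. The summits lay at -987, -1233, -940 and -935 bp from the start in the same order, and the nearest gene was AI480526 each time.

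Kmt5c encodes a methyltransferase of histone H4 (chromosome 7, 4743113 to 4750513, plus strand). Its peaks had fold enrichments of 3.16 in CpG 1 and 5.89 in CpG 2, against 6.03 in control 1 and 9.85 in control 2. The summit lay at -231 bp in CpG 1 and -232 bp in CpG 2, against -231 bp in both control libraries, so it stayed within 1 bp. Kdm4b, a demethylase gene of histone H3, had summits at -208, -207, -206 and -259 bp in CpG 1, CpG 2, control 1 and control 2. Its fold enrichments were 4.94 and 10.9 with CpG and 3.92 and 7.73 in control, and its pileups of 73 and 113 fragments with CpG and 56 and 113 in control overlapped between the conditions.

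Kmt2e, whose protein binds methylated histone H3, had the tallest promoter peak of the members in CpG 2 and control 2. The pileup was 37 fragments in CpG 1 and 160 in CpG 2, against 67 in control 1 and 160 in control 2, and the fold enrichments were 2.24 and 14.6 with CpG and 5.29 and 12.4 in control. The summits were at -1405 bp in CpG 1 and between -1223 and -1202 bp in the other libraries, and the nearest gene was 5031425E22Rik. Hdac1, a deacetylase of several corepressor complexes, had fold enrichments of 2.72 in CpG 1 and 3.98 in CpG 2, against 7.07 in control 1 and 7.89 in control 2, but its pileups of 37 and 33 fragments with CpG and 30 and 34 in control overlapped. The implied local backgrounds were 12.99 and 7.54 fragments with CpG and 3.39 and 3.44 in control. The demethylase gene Kdm5a had fold enrichments of 3.38 and 4.47 with CpG and 7.07 and 6.50 in control, and its peaks in CpG 1 and CpG 2 did not overlap each other.

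At Hdac4, a class IIa deacetylase gene, the peak called Promoter lay inside the gene as its coordinates stand in the files. Its summits were 15212 and 15003 bp downstream of the start in CpG 1 and CpG 2 and 14962 and 15136 bp downstream in control 1 and control 2. No library had a peak summit within 1 kb of the start used here. The 3 annotation columns thus do not share 1 start for this gene.

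To show what the marked promoters look like, the 250 bases before the RefSeq start (GRCm38.p6) are given for Kmt5c, marked in all libraries, and for Kdm6a and Setd2, marked in the control libraries. CG dinucleotides are in capitals, 13 in Kmt5c (chr7:4739877-4740126, plus strand), 15 in Kdm6a (chrX:18162325-18162574, plus strand) and 31 in Setd2 (chr9:110532347-110532596, plus strand). The peak lists name no build and their gene coordinates differ from GRCm38.p6, so peaks were not placed on these bases.
Kmt5c: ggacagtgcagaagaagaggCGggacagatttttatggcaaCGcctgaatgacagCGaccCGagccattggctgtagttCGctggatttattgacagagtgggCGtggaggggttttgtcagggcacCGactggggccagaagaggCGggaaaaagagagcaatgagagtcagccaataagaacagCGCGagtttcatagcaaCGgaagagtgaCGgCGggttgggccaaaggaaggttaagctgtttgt
Kdm6a: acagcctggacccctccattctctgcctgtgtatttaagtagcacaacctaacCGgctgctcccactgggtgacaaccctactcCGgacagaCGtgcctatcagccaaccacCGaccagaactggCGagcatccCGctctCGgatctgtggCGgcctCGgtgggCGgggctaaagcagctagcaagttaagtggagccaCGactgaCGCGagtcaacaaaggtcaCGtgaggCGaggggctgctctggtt
Setd2: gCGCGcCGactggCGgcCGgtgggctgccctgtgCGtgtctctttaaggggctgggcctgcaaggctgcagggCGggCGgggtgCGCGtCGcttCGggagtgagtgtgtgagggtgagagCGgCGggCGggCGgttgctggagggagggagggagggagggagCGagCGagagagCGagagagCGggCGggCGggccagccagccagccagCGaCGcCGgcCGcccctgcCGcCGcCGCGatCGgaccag

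The members' promoters at hand held more CG dinucleotides than promoters in general. For 32 of the 45 members a RefSeq promoter sequence was at hand, from 250 before to 50 after the most upstream start. Hdac1, Kdm4b, Kdm5a, Kmt2e and Setd1b, all marked in every library, and Kdm6b were not among them. The CG counts and the motif searches below therefore leave these genes out. The median number of CG dinucleotides was 21 in these 32, against 13 in 17492 protein-coding promoters and 7 in 27025 promoters of all kinds. The range ran from 0 in Kdm4c to 65 in Kdm7a. This is a description of the sequences and carries no test.

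The core of the interferon-stimulated response element, a site that interferon regulatory factors bind, was searched as GAAA, any 2 bases and GAAA. On either strand it was in the promoter of 1 of 32 members, Kat5, which is 3.12%, against 3.49% of all promoters. Kat5, an acetyltransferase gene, had 1 peak in the 4 libraries, in CpG 2, with a summit at 35 bp. The PU.1 core GAGGAAGT was in 1 of 32, Kat2b, against 3.25% of all promoters. The AP-1 site TGACTCA was in 3 of 32, which is 9.38%, against 5.17%. No match says only that these letters are absent from the window. The 3 are Kat2b and the demethylase genes Kdm4a and Kdm5c. The AP-1 matches of Kdm4a (chr4:118180044-118180293, minus strand) and Kdm5c (chrX:152232977-152233226, plus strand) are in capitals below, on the 250 bases before the start.
Kdm4a: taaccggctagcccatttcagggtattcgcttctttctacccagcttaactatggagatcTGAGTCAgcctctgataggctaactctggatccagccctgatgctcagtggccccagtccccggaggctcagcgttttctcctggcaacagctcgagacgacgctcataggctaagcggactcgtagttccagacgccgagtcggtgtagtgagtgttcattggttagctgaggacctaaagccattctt
Kdm5c: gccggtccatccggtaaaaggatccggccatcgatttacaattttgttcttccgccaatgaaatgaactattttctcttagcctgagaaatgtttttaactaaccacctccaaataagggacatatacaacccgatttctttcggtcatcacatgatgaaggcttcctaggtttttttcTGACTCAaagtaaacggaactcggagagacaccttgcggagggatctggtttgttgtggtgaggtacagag

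Kdm4a, which removes methyl groups from histone H3, had a peak at its start in each library, though the Promoter class was given in CpG 1 alone. Its summit was at -79 bp in CpG 1 and 101 bp in CpG 2, against 133 bp in control 1 and 147 bp in control 2, and the peak of CpG 1 overlapped those of the other 3. The fold enrichments were 5.00 and 5.86 with CpG and 4.65 and 4.90 in control. Kdm5c, the X-linked relative of Kdm5a, had no peak in CpG 1, and the fold enrichment of its promoter peak was 7.31 in CpG 2, against 7.35 in control 1 and 3.59 in control 2.

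Marked in both control libraries and with no promoter peak in either CpG library were 4 members, Kdm6a, Kdm6b, Kmt5a and Setd2. They are 8.89% of the members, against 4.30% of all named genes and 6.06% of named coding genes. The count was 7 without control 1 (10.5% of named genes), 11 without control 2 (8.40%), 11 without CpG 2 (2550 of 21295 named genes, the highest background of the 4) and 5 without CpG 1 (4.84%). Counted by any summit within 1 kb of the start it was 7, against 6.22% of named genes, and these were Kat14, Kat2b, Kat8, Kdm2a, Kdm6a, Kdm6b and Setd2. Kdm6a, Kdm6b and Setd2 are in both lists. With lists of equal length it was again 4 (2.06% of named genes), but of the first 4 only Kmt5a was among them, beside Hdac5, Kdm3a and Kmt2b.

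Kdm6a, also called UTX, is the X-linked relative of Kdm6b (chromosome X, 18028813 to 18146175, plus strand). Its promoter peak had pileups of 31 fragments in control 1 and 28 in control 2, fold enrichments of 4.12 and 3.68 and summits at -170 and -174 bp. No CpG library had a peak that overlapped it, and the only CpG peak nearest to Kdm6a was in CpG 2, at 24746 bp, where control 2 also had one. Setd2, which trimethylates histone H3 along transcribed genes, had pileups of 33 fragments in control 1 and 25 in control 2, with fold enrichments of 4.91 and 3.71 and summits at -277 and -341 bp. No CpG peak overlapped the promoter peak, and CpG 1 had 1 peak far inside the gene, at 81502 bp. These promoter peaks ranked low in their lists, at percentiles from 4.71 to 29.1.

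Kmt5a, a methyltransferase gene of histone H4 (chromosome 5, 124577992 to 124600371, plus strand), was marked from its start into its first introns. It had 1 nearest peak in CpG 1 and 4 in CpG 2, against 5 in control 1 and 7 in control 2. A peak covered the start in CpG 2 with its summit at 122 bp and a fold enrichment of 7.36, against 79 bp and 9.01 in control 1 and -91 bp and 11.2 in control 2. The upstream peak that neither CpG library had lay at -1466 bp in control 1 and -1442 bp in control 2, with fold enrichments of 7.83 and 8.12. Inside the gene, peaks near 2836 bp in CpG 2, 2638 bp in control 1 and 2951 bp in control 2 had 13.7, 8.13 and 16.1, and CpG 1 had none there.

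Kdm6b had its highest pileup in CpG 2, control 1 and control 2 at a broad peak inside the gene (chromosome 11, 69289333 to 69304501, minus strand). This intronic peak spanned 3656 bp in CpG 2, 3512 bp in control 1 and 3793 bp in control 2, with its summit 3239, 4051 and 2836 bp downstream of the start. Its fold enrichment was 23.5 in CpG 2, the highest of any member peak in the 4 libraries, against 11.4 in control 1 and 10.5 in control 2. The pileups of 101 fragments in CpG 2, 107 in control 1 and 100 in control 2 spanned a narrower range than the fold enrichments, and the implied local backgrounds were 3.33 fragments in CpG 2, 8.46 in control 1 and 8.59 in control 2. In CpG 1 the stretch held 3 separate peaks, with fold enrichments of 4.38, 3.88 and 2.59 and pileups of 33, 30 and 30 fragments.

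A region some kilobases upstream of Kdm6b was also marked in all 4 libraries. The peaks there had fold enrichments of 4.28 in CpG 1 and from 2.50 to 4.06 over 3 peaks in CpG 2, against 6.93 in control 1 and 5.55 in control 2. The promoter-class peaks of the control libraries were weak by comparison, at 4.11 and 2.96 in control 1 and 4.58 in control 2. A peak farther upstream, at -10542 bp in control 1 and -10442 bp in control 2, had 11.5 and 15.2, above the intronic peak's fold enrichment in the same libraries, and no overlapping peak in either CpG library. Kdm6bos, the opposite-strand transcript within Kdm6b, had a promoter-class peak in CpG 2 (5.12) and in control 2 (2.49), and as its peaks lie inside Kdm6b the transcripts are not independent members.

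**Figure D3:**
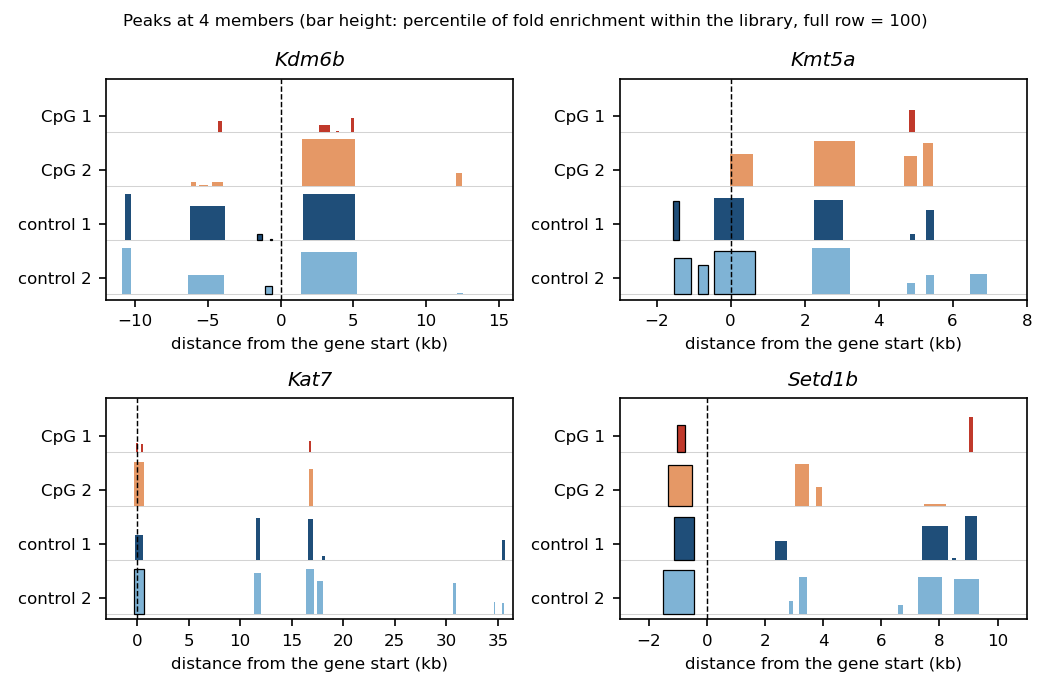
Peaks at Kdm6b, Kmt5a, Kat7 and Setd1b in the 4 libraries, by distance from the gene start in kb in the direction of transcription. Bar width is the peak's extent, bar height its percentile of fold enrichment within its library, black outlines mark promoter-class peaks, and the dashed line is the gene start. The broad peak inside Kdm6b is seen in CpG 2, control 1 and control 2 and as 3 separate short peaks in CpG 1.

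No member was marked in both CpG libraries while unmarked in the control libraries. This is 0 of 45, and 0.610% of all named genes and 0.811% of coding genes had the pattern. Without CpG 1 there were 2, Kdm1b and Setd4 (3.59% of named genes), without CpG 2 there were 2, Kdm4a and Kdm4c (2.23%), and without control 2 there was 1, Setd3 (1.60%). With lists of equal length there was 1, Hdac4 (319 of 21295 named genes). Each is a count of 1 or 2 of 45, close to what its background share gives. Kdm4c, a demethylase gene, had a promoter peak in CpG 1 (fold enrichment 6.48) that no other library overlapped. Kdm1b, a flavin-dependent demethylase gene, had one of 3.36 in CpG 2 that no other library overlapped. By contrast, the promoter peak of Setd4 in CpG 2 overlapped a peak of another class in control 2. That of Kdm4a in CpG 1 overlapped peaks of another class in both control libraries.

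Promoter peaks were found in 1 library at 14 members, in 2 at 6 and in 3 at 9, and 9 members had none. With a promoter peak in any library were 36 members, 80.0%, against 39.6% of all named genes and 53.4% of coding genes. The 9 are Hdac3, Hdac7, Hdac10, Kat5, Kat6b, Kdm2a, Kdm5b, Kdm8 and Setd6, and all of them had peaks of another class. A peak summit lay within 1 kb of the start in 1 library at Hdac3, Hdac10 and Kat5, in 2 at Kdm2a and in 3 at Kdm8. Hdac7, a class IIa deacetylase gene, had no peak in CpG 1 and 2 intronic peaks in CpG 2, against 4 in control 1 and 3 in control 2 inside the gene. These lay between 19291 and 23120 bp downstream of the start. Hdac3, a class I deacetylase gene, had 1 peak in all, in control 1, with a fold enrichment of 2.67. Kdm8 had peaks within 141 bp downstream of its start in CpG 2, control 1 and control 2. Kat2b, which encodes the acetyltransferase PCAF, had 1 nearest peak in CpG 2 and none in CpG 1, against 4 in control 1 and 5 in control 2. Peaks in Kat2b introns whose nearest gene was Gm6919 are left out of these counts. One of them overlapped between all 4 libraries, with summits at 20630 bp in CpG 1 and 20650 bp in CpG 2. In control 1 and control 2 its summits lay at 20569 and 20432 bp. Its fold enrichments were 4.002 in CpG 1 and 11.96 in CpG 2, against 3.62 in control 1 and 6.98 in control 2.

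Peaks nearest to members numbered 24 in CpG 1 and 52 in CpG 2, against 72 in control 1 and 73 in control 2. As shares of each list these were 0.177% and 0.201% with CpG and 0.246% and 0.196% in control. The means were 0.189% ± 0.0170 with CpG and 0.221% ± 0.0359 in control (SD, n = 2 each, exact permutation p = 0.67), and the conditions overlapped. The difference was -0.0319 percentage points, with -0.00651 without control 1, -0.0572 without control 2 and -0.0198 without CpG 1. Summed over the libraries, a member was nearest to between 1 and 17 peaks, with a median of 4. Kdm6b and Kmt5a had 17 each and Hdac4, Kat7 and Setd1b 13 each. Some peaks nearest to a member carried the Promoter class of another gene, and these shares count the class of any gene. Of the peaks nearest to members 41.7% and 32.7% were in it in CpG 1 and CpG 2 and 38.9% and 30.1% in control 1 and control 2. Of all peaks 15.8%, 20.2%, 19.7% and 18.6% were, in the same order.

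The members' promoter peaks had a higher median local background than promoter peaks in general. The background implied by pileup and fold enrichment had a median of 10.99 fragments at member promoter peaks in CpG 1, 5.97 in CpG 2, 4.02 in control 1 and 4.30 in control 2. Over all promoter-class peaks the medians were 3.35, 2.63, 2.61 and 2.58 in the same order. Of the member promoter peaks 9 of 11 in CpG 1 and 15 of 20 in CpG 2 lay above the median of their list's promoter peaks, and 18 of 30 in control 1 and 20 of 29 in control 2. The fold enrichments of the members ranged from 2.24 to 6.48 in CpG 1 and 3.16 to 14.6 in CpG 2, and from 2.96 to 9.56 in control 1 and 2.49 to 12.8 in control 2.

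The members' promoter peaks also ranked lower in CpG 1, CpG 2 and control 1, and higher in control 2. The median percentile of member promoter peaks was 5.47 in CpG 1 and 31.7 in CpG 2, and 37.3 in control 1 and 60.2 in control 2, against 37.4, 44.6, 47.8 and 46.0 for all promoter-class peaks in the same order. Below the percentile of 10 were 7 of 11 member peaks in CpG 1 and 7 of 20 in CpG 2, and 3 of 30 in control 1 and 7 of 29 in control 2. In all promoter-class peaks these shares were 21.2%, 16.2%, 15.1% and 14.7%. What the local background contributes to these ranks was not tested.

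**Figure D4:**
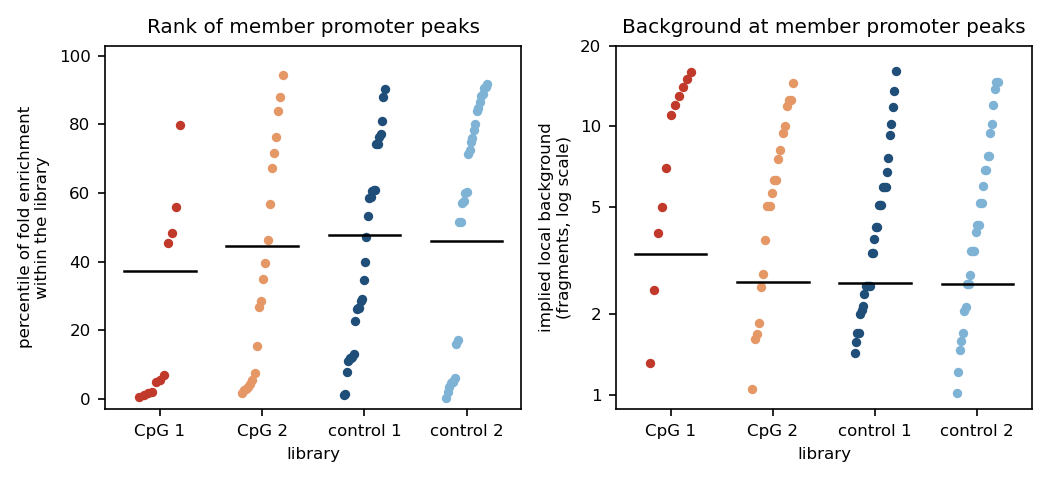
Promoter-class peaks of the members in each library (points), by percentile of fold enrichment within the library (left) and by implied local background in fragments on a log axis (right). Black lines are the medians over all promoter-class peaks of the library. In CpG 1 most member peaks lie low on the left, with a median percentile of 5.47, and high on the right, with a median background of 10.99.

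Other writers and erasers of histone marks, outside the symbol rule, had lower shares than the members in each library, with no test. Of 43 named genes of a list of 54, 5 in CpG 1 and 15 in CpG 2 had a promoter peak, against 14 in control 1 and 15 in control 2. Those in all 4 libraries were Nsd3, a lysine methyltransferase gene, Prmt1 and Carm1, which methylate arginines, and the deacetylase gene Sirt2. Clock was marked in the control libraries alone and Prdm9 in the CpG libraries alone, patterns of 4.30% and 0.610% of all named genes. As shares these genes stood at 11.6%, 34.9%, 32.6% and 34.9% in CpG 1, CpG 2, control 1 and control 2. In the same order all named genes stood at 10.3%, 22.1%, 23.9% and 28.4%. Named coding genes stood at 14.1%, 30.5%, 33.2% and 38.8%, so this list was above coding genes in CpG 2 alone. The higher share of the members thus did not extend to this list when set against coding genes.

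Partners and readers in the same complexes stood nearer to the members than the other writers and erasers did. In CpG 1 their share was still below the 24.4% of the members and close to the 14.1% of coding genes. Of 51 named genes of a list of 55, 8 in CpG 1 and 24 in CpG 2 had a promoter peak, against 33 in control 1 and 29 in control 2, which is 15.7% and 47.1% with CpG and 64.7% and 56.9% in control. Among those marked in all 4 were the corepressor genes Tbl1x and Sin3a, the deacetylase complex genes Gatad2a and Gatad2b, and the acetyltransferase partner genes Brpf1 and Trrap. In the control libraries alone, both times, were 7 of the 51, Mtf2, Rbbp5, Brpf3, Epc2, Rcor1, Chd4 and Brd2. Of all named genes 4.30% had this pattern, and of coding genes 6.06%. None of the 51 was marked in the CpG libraries alone, a pattern of 0.610% of all named genes and 0.811% of coding genes, so a count of none is close to the background.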

How the data were processed

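Anti-IRF5 CUT&Tag libraries of 2 CpG and 2 control samples were analysed. The submitters' processing notes name MACS2 2.1.0, ChIPseeker, BWA 0.7.12 and fastp 0.20.0, with no role or order, and the sources used here do not give the build. The authors deposited, for each peak, a pileup signal at the summit (whole numbers in the 4 library lists), a fold enrichment (ratio of pileup to local background) and the -log10 of its p-value and q-value. The last 2 headers are damaged and were read from column order and values. The authors also deposited 1 list per condition, and how its libraries were combined is not stated.

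Lines that continued an overlong cell were skipped (281 to 1017 a library), and peaks off the 21 assembled nuclear chromosomes left out (13 to 17). Lists hold no comparable read counts, so presence of a peak per library was the measure, counted in Python 3.11.15 with pandas 2.3.3. Promoter genes were taken by gene identifier from the annotation of a peak, and nearest genes and starts from the adjoining column. Implied background was computed as (pileup + 1) / fold enrichment - 1. The exact permutation test between conditions was two-sided, over 6 assignments of libraries. No interval can be given for peak counts, and precision is limited by 2 libraries per condition. RefSeq tables of GRCm38.p6 gave gene type, by symbol, and promoter sequence. Counting and tests were tested on simulated data.

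Members and gene lists were chosen with earlier results of these data known. Named are members with a promoter peak in all 4 libraries or in 1 condition alone, the 5 with most nearest peaks and 24 genes chosen by name, of which 19 were members. Other members were named after their values were seen. One gene of the list of complex partners is not reported by name here. Alternatives were a window of 1 kb around the start, -log10 q of at least 5, lists of equal length, coding genes, leaving out each library, a replicate block and the lists of whole conditions.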

Additional observations from a re-analysis of the deposited data

How the results depend on the processing

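The direction of the difference between the conditions, fewer members with promoter peaks with CpG, held under all alternatives run, from -31.1 to -7.78 percentage points by setting and from -32.2 to -14.4 when each library was left out. The difference in the share of nearest peaks also kept its sign, from -0.0572 to -0.00651 percentage points when each library was left out. Members marked in both control libraries alone numbered 4 by the Promoter class (4.30% of named genes). They numbered 8 by summits within 1 kb with the member as nearest gene (5.89%) and 7 by any summit within 1 kb (6.22%). In the authors' lists of whole conditions they numbered 14. Those lists held 15249 peaks for CpG and 28465 for control, and marked 14.97% and 24.75% of named genes. Shares of named genes by pattern are not given for them, so counts from these lists have no background. Members marked in the control libraries alone numbered 5 to 11 when each library was left out. Members marked in the CpG libraries alone numbered 1 with lists of equal length and 2 in the lists of whole conditions, in place of 0, and 0 to 2 when each library was left out. Members marked in all libraries numbered 3 with -log10 q of at least 5 (3.78% of named genes), 1 with lists of equal length (2.21%) and 11 in the lists of whole conditions, in place of 7, and 7 to 14 when each library was left out. The excess over named genes, 23.8 points, was 12.8 with lists of equal length and 15.7 against coding genes, and 20.5 to 27.0 when each library was left out. Promoter regions with overlapping peaks in every library were found at 9 members, also at 9 with an overlap of 50% of the shorter peak. They were found at 8 to 17 when each library was left out. Among the 9 are Kat7 and Kdm4a, whose overlapping peaks had the Promoter class in 1 library each. The share of all named genes with such a region was not computed, so these counts have no background. A count over fewer libraries asks for less, equal lengths remove weak peaks by construction, and for the other changes the cause was not tested.

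With the replicate number as a block, the difference in members stayed at -23.3 points and the exact sign-flip test gave p = 0.5, the smallest 2 pairs allow, and 1 for the share of nearest peaks. The replicate numbers share no stated origin, and same-numbered libraries deviated together with r = 0.0472 over 21295 named genes, so they were not taken as pairs. Of 23 named members, 11 kept their number of marked libraries by summits within 1 kb with the member as nearest gene, 18 with the stricter q, 7 with equal lengths and 12 by any summit within 1 kb. Unknown depth and 1 short list limit what absence of a peak can show.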
